A study of Homo sapiens with 6 samples.

Results

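The 30 genes described here encode enzymes and transporters of glycolysis, of lactate handling and of the pentose phosphate pathway. They were taken by symbol from a list of 30 names, all 30 of which occur among the 39396 gene symbols of the deposited count table, and all 30 passed the expression filter that left 17078 genes for testing. RNA sequencing covered 3 libraries labelled RKO-Ola (RKO cells given olaparib, an inhibitor of the PARP enzymes) and 3 labelled RKO-DMSO (RKO cells given the solvent DMSO). All 6 carry the labels RKO, a human colorectal carcinoma line, and genotype WT, were grown in EMEM with serum, and were plated 24 h before treatment. For olaparib, the sources used here state neither dose nor duration. No label tells whether replicates came from separate cultures, so the p-values measure spread among the libraries alone, and that spread may be technical.

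Glycolysis imports glucose, commits it by phosphorylation, splits it into triose phosphates and ends in pyruvate, which lactate dehydrogenase turns into lactate for export. The pentose phosphate pathway branches off after the hexokinase step: its oxidative arm yields NADPH and its non-oxidative arm exchanges sugar phosphates with glycolysis and supplies ribose for nucleotides. Most steps are served by several isoenzymes from separate genes, and the choice between them is a known feature of tissue type and of proliferating tumour cells.

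The library totals ran from 28715138 to 42423785 counts. Of 10 markers of embryonic kidney lines, 10 were lower in the olaparib libraries, with a summed level of 2.58 to 4.25 CPM (counts scaled to the TMM-adjusted library size) against 353 to 571 CPM in the DMSO libraries. PAX2, SALL1, NEFL, LIN28B and POU4F1 had no count in any olaparib library. Of 12 markers of colorectal epithelium, 5 had enough counts to be tested, and 3 of these were higher and 1 lower in olaparib. The summed level of the 12 was 807 to 1090 CPM in olaparib and 242 to 311 CPM in DMSO. It came mostly from the simple-epithelial keratins KRT8 (581 CPM in olaparib against 175 CPM in DMSO) and KRT18 (400.4 against 75.3 CPM), and 8 of the markers averaged under 1 CPM in both groups. CDX1 had no count in either group, and CDX2, GPA33 and CEACAM5 had none in olaparib. CDX2, the 1 tested marker that was lower, averaged 24.5 ± 2.0 CPM in DMSO, against 0.145 CPM for GPA33 and 0.030 CPM for CEACAM5. The summed level was 103 to 136 CPM in olaparib against 94.0 to 102 CPM in DMSO for 8 fibroblast markers, of which 6 were tested, 1 being higher and 4 lower. For 6 blood markers it was 2.83 to 3.50 against 4.68 to 5.84 CPM, with 2 of 3 tested lower, and for 5 endothelial markers 23.0 to 24.7 against 1.33 to 1.69 CPM, with 2 of 4 tested higher and 1 lower. Most of the fibroblast sum was COL1A1 (113 CPM in olaparib against 68.4 CPM in DMSO), while LUM held 0.209 against 18.9 CPM. In olaparib most of the endothelial sum was CDH5 (20.5 CPM, against 0.128 CPM in DMSO), while KDR held 0.047 against 0.676 CPM. The markers in the lists above move with the groups. A difference in the cells behind the libraries and an effect of olaparib therefore cannot be told apart. No difference given here is assigned to the drug. In bulk RNA, fewer cells of a type and less RNA per cell cannot be told apart either.

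The pathway did not move as a block, and isoenzymes of the same step often moved in opposite directions. Of the 30 genes, 8 were higher in olaparib, 14 were lower and 8 did not pass the test (edgeR quasi-likelihood, Benjamini-Hochberg adjusted p under 0.05 over all genes tested). Called members made up 73.3% of the list, where 75.7% of all tested genes were called, 35.4% of them higher and 40.3% lower. A call with at least a 2-fold difference was made for 8 of the 30, against 47.0% of all tested genes. The groups did not overlap for 26 of the 30, against 79.4% of all tested genes. The median log2 fold change of the members was -0.26 and that of all tested genes was -0.09, and the median absolute log2 fold change was 0.63 for the members and 0.94 for all genes tested. By arm, 6 of 19 glycolytic genes were higher and 9 lower, 1 of 5 genes of pyruvate and lactate handling was higher and 1 lower, and 1 of 6 pentose phosphate genes was higher and 4 were lower. Together the 30 genes held 1.22, 1.24 and 1.23% of counts in the olaparib libraries against 1.44, 1.24 and 1.12% in the DMSO libraries, so their summed share overlapped between the groups.

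**Figure D1:**
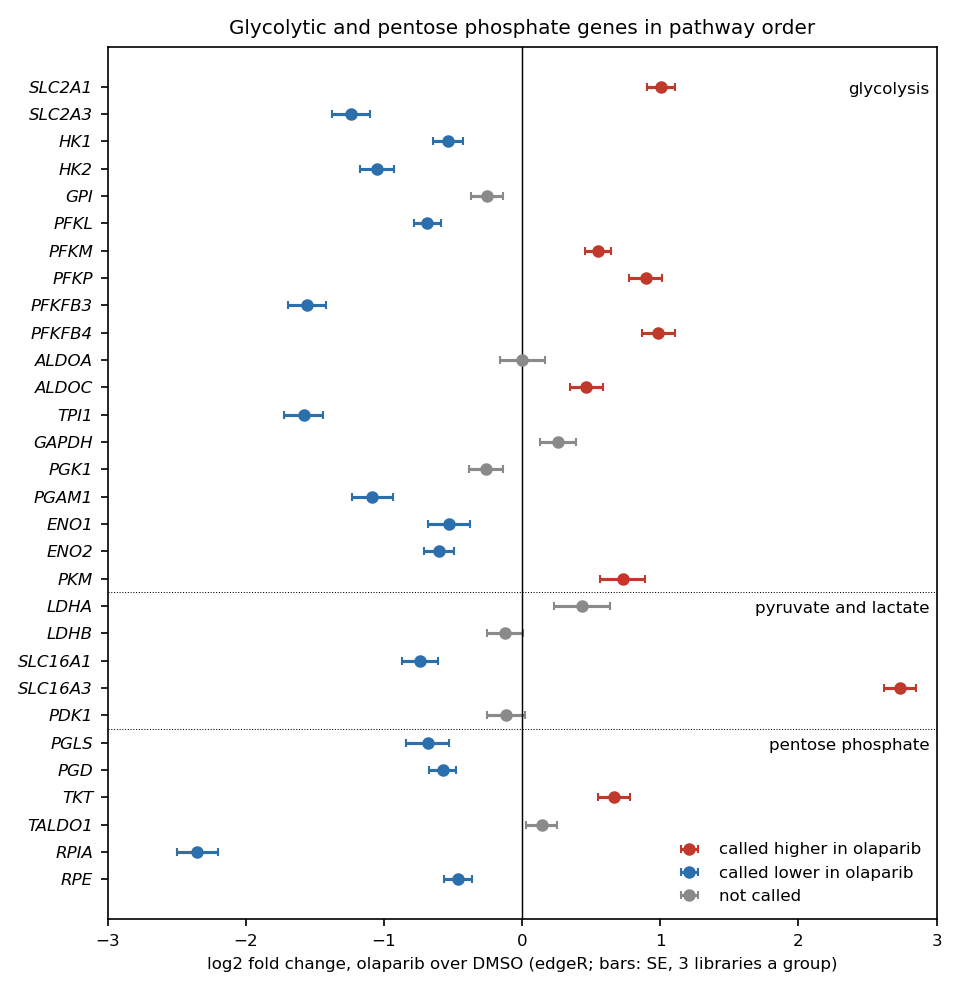
Log2 fold change of olaparib over DMSO (x axis) for the 30 genes in pathway order (y axis), with bars for the standard error from edgeR over 3 libraries a group. The monocarboxylate transporter SLC16A3 (2.73) and the isomerase RPIA (-2.35) lie farthest from 0, and isoenzymes of the glucose import, phosphofructokinase and lactate transport steps lie on opposite sides of 0.

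Promoter letters were examined because several glycolytic genes are known targets of the hypoxia-inducible factors, which bind the letters ACGTG or GCGTG. In the 250 bases before the start that RefSeq (build GRCh38.p14) gives, 28 of the 30 genes had a sequence. ACGTG, on either strand, occurred in 9 of these 28 windows (32.1%), against 18.5% of 35116 promoter windows of the same length, and GCGTG in 9 of 28 (32.1%) against 32.2%. The palindrome CACGTG, which holds ACGTG on both strands and so counts as a match on each, occurred in 3 of 28 (10.7%) against 6.34%. ACGTG was present in 1 of 8 genes called higher, 3 of 12 called lower and 5 of 8 not called, and GCGTG in 2, 6 and 1 of them. The windows shown are those of the genes with the largest rise and fall (SLC16A3, RPIA), of an isoenzyme pair that moved in opposite directions (PFKFB4, PFKFB3) and of the genes with the most matches (LDHA, ALDOC), each 5′ to 3′ on the gene's strand with ACGTG and GCGTG matches on either strand in capitals.
SLC16A3, chr17:82228185-82228434, plus strand: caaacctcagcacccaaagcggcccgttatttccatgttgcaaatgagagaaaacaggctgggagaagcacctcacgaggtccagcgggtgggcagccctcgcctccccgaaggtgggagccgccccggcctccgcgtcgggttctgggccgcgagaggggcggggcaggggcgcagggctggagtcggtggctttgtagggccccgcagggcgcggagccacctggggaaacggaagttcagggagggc
RPIA, chr2:88691423-88691672, plus strand: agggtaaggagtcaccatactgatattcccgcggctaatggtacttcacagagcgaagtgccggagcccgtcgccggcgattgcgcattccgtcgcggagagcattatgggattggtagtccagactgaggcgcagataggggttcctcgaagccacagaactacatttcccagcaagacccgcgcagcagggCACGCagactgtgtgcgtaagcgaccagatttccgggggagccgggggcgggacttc
PFKFB4, chr3:48556804-48557053, minus strand: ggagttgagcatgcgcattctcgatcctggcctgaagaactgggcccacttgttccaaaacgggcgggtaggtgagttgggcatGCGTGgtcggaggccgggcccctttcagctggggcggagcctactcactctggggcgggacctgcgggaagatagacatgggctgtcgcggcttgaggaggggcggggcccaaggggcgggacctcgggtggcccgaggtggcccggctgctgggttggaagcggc
PFKFB3, chr10:6144671-6144920, plus strand: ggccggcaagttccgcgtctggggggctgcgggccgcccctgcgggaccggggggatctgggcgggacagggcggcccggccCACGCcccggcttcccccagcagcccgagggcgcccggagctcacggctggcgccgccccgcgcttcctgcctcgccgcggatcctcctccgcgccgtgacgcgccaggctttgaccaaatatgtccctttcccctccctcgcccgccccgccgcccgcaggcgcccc
LDHA, chr11:18394313-18394562, plus strand: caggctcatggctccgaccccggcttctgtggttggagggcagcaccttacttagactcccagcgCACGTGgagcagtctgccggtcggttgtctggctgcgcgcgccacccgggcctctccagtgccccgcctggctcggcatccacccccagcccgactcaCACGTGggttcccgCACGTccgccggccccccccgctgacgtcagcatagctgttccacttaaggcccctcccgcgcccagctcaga
ALDOC, chr17:28576896-28577145, minus strand: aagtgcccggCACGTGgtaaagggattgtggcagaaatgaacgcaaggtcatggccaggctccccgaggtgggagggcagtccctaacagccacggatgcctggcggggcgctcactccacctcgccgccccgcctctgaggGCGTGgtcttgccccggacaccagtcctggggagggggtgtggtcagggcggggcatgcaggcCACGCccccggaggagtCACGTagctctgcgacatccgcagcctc
SLC16A3 had none of these letters in its window, RPIA, PFKFB4 and PFKFB3 had 1 match each, and LDHA and ALDOC had 5 each. A match describes letters only and is no binding site.

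At glucose import, the transporter SLC2A1 (GLUT1, the widely expressed basal glucose carrier) was higher and SLC2A3 (GLUT3, a high-affinity carrier best known from neurons) was lower. SLC2A1 stood at 196, 225 and 207 CPM in the olaparib libraries against 107, 107 and 99.6 CPM in the DMSO libraries. Every olaparib library lay above every DMSO library, a 2.01-fold difference (log2 1.00 ± 0.10, SE, adjusted p = 1.52e-06). SLC2A3 stood at 9.11, 8.36 and 9.31 CPM in olaparib against 21.7, 19.6 and 21.8 CPM in DMSO. Here every olaparib library lay below every DMSO library, 2.36-fold lower (log2 -1.24 ± 0.14, adjusted p = 4.54e-06). Per kilobase of exon, SLC2A1 made up 96.8 ± 0.36% of the sum of SLC2A1 and SLC2A3 in olaparib and 86.6 ± 1.01% in DMSO (SD, n = 3 each). Among further transporters of the family, named here after their values were seen, SLC2A6 was 10.9-fold higher (log2 3.45 ± 0.13, adjusted p = 5.68e-10), at 171, 184 and 185 CPM in olaparib against 19.2, 15.8 and 14.3 CPM in DMSO. SLC2A8 was 2.58-fold lower (log2 -1.37 ± 0.15, adjusted p = 3.11e-06). Of the summed level of SLC2A1, SLC2A3, SLC2A6 and SLC2A8 per kilobase, SLC2A1 made up 44.2 ± 1.24% in olaparib and 55.5 ± 1.44% in DMSO. SLC2A6 made up 50.6 ± 0.98% in olaparib and 11.7 ± 1.76% in DMSO. These are shares of RNA, and which of the carriers bring glucose into the cell was not tested. SLC2A1 lies on chromosome 1 from 42925375 to 42959176 and SLC2A3 on chromosome 12 from 7919230 to 7936275 (GENCODE release 29, GRCh38).

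At the hexokinase step, which traps glucose in the cell as its phosphate, both members were lower. HK1, the form of most tissues, held 117, 113 and 130 CPM in olaparib against 196, 169 and 159 CPM in DMSO. HK2, the form known from muscle and many tumours, held 57.9, 59.9 and 62.9 CPM in olaparib against 147, 107 and 119 CPM in DMSO. Neither gene overlapped between the groups: HK1 was 1.45-fold lower (log2 -0.54 ± 0.11, adjusted p = 6.69e-04) and HK2 2.07-fold lower (log2 -1.05 ± 0.12, adjusted p = 7.11e-06). HKDC1, a further hexokinase family gene that lies next to HK1 on chromosome 10 (69220303 to 69267559, against 69269984 to 69401884 for HK1), went the other way. HKDC1 held 88.4, 110 and 115 CPM in olaparib against 0.950, 0.708 and 0.452 CPM in DMSO, 149-fold higher (log2 7.22 ± 0.22, adjusted p = 1.56e-10). Summed per kilobase of exon, HK1 and HK2 gave 29 ± 1.68 CPM per kb in olaparib and 48.2 ± 6.21 in DMSO, without overlap. With HKDC1 included the sum was 53.6 ± 4.53 CPM per kb in olaparib and 48.4 ± 6.26 in DMSO, and the libraries overlapped (49.0 to 58.0 against 44.6 to 55.6). HKDC1 then made up 45.8 ± 3% of the sum of HK1, HK2 and HKDC1 in olaparib and 0.336 ± 0.088% in DMSO. These sums leave out ADPGK, listed for the same step and named here after its values were seen. ADPGK stood at 11.7 ± 0.35 CPM per kb in olaparib and 18.0 ± 1.17 in DMSO (1.54-fold lower, adjusted p = 7.77e-05).

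**Figure D2:**
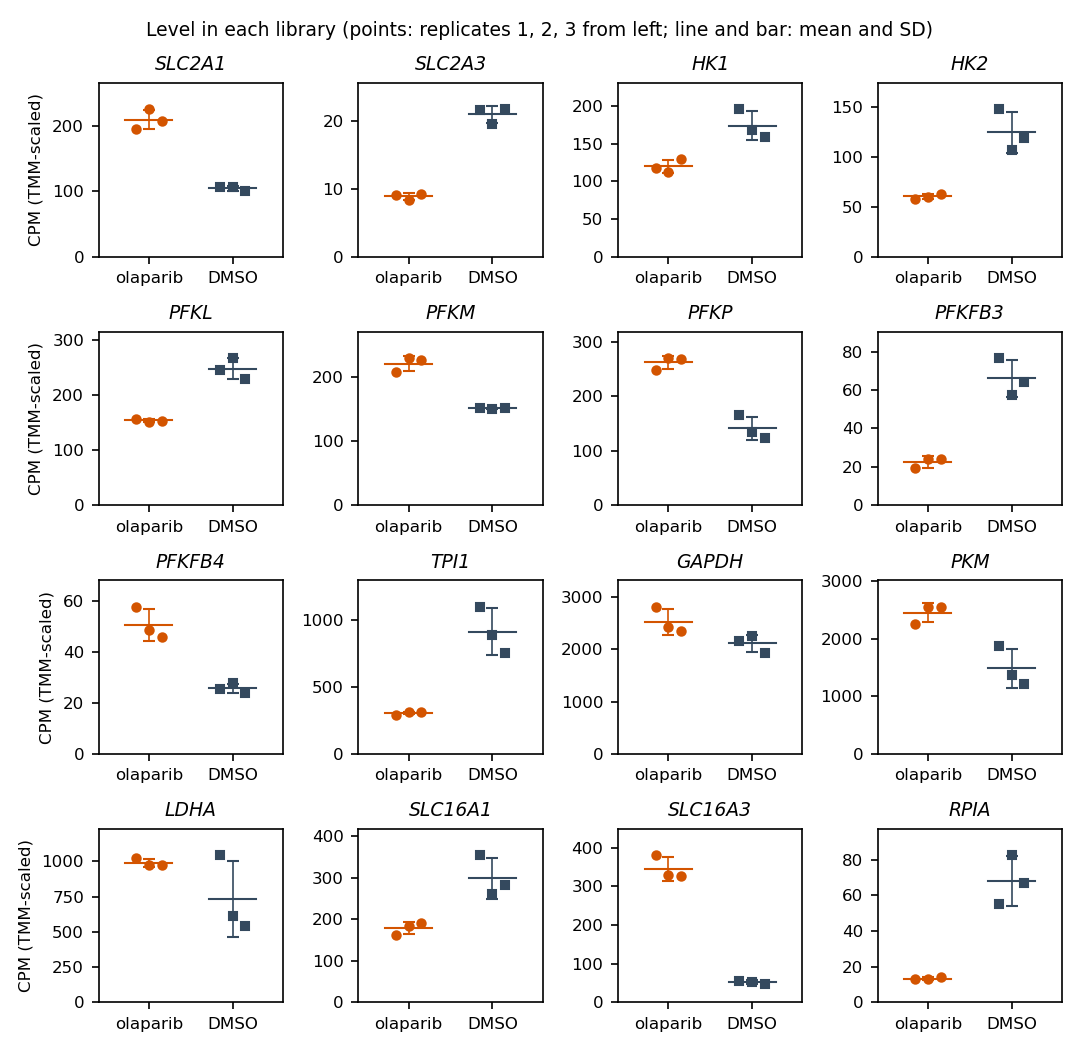
Level of 16 of the genes in each library (y axis, CPM relative to the TMM-scaled library, from 0), olaparib on the left and DMSO on the right of each panel, with points for replicates 1 to 3 from left and a line and bar for mean and SD. In 15 of the 16 panels the groups do not overlap; in the LDHA panel DMSO replicate 1 (1043 CPM) lies above all olaparib libraries.

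Phosphofructokinase, the committing step of glycolysis, showed a shift among its 3 subunit genes. PFKL (liver type) was lower, with 158, 152 and 153 CPM in olaparib against 247, 268 and 230 CPM in DMSO (1.61-fold, log2 -0.69 ± 0.10, adjusted p = 4.45e-05). PFKM (muscle type) was higher, with 208, 230 and 227 CPM in olaparib against 152, 150 and 152 CPM in DMSO (1.46-fold, log2 0.55 ± 0.09, adjusted p = 1.91e-04). PFKP (platelet type) was higher too, with 249, 271 and 270 CPM in olaparib against 165, 134 and 124 CPM in DMSO (1.86-fold, log2 0.90 ± 0.12, adjusted p = 2.25e-05). None of the 3 overlapped between the groups. Per kilobase of exon PFKL made up 17.0 ± 0.98% of the step in olaparib and 35.8 ± 2.44% in DMSO, and PFKP 53.3 ± 0.47% in olaparib and 37.5 ± 3.40% in DMSO. The summed level of the step was 102 ± 3.88 CPM per kb in olaparib and 77.7 ± 5.15 CPM per kb in DMSO, again without overlap.

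The bifunctional enzymes PFKFB3 and PFKFB4 make and break down the sugar bisphosphate that activates phosphofructokinase, PFKFB3 with the strongest bias towards making it. PFKFB3 stood at 19.2, 24.2 and 24.2 CPM in olaparib against 76.7, 57.5 and 64.1 CPM in DMSO. PFKFB4 stood at 57.6, 48.4 and 45.7 CPM in olaparib against 25.3, 27.6 and 23.8 CPM in DMSO. The groups were apart for both, in opposite directions: PFKFB3 was 2.94-fold lower (log2 -1.55 ± 0.14, adjusted p = 6.27e-07) and PFKFB4 1.98-fold higher (log2 0.98 ± 0.12, adjusted p = 1.06e-05). Of the pair's sum per kilobase, PFKFB3 was 30.9 ± 5.24% in olaparib and 71.9 ± 3.93% in DMSO. PFKFB2, the heart form of the same enzyme, not among the 30 and named here after its values were seen, was 7.24-fold higher (log2 2.86 ± 0.15, adjusted p = 8.82e-09). It held 346, 301 and 305 CPM in olaparib against 44.5, 34.1 and 52.7 CPM in DMSO. Of the 3 genes' sum per kilobase, PFKFB2 was 72.2 ± 0.87% in olaparib and 22.2 ± 3.75% in DMSO, and PFKFB3 8.62 ± 1.64% in olaparib and 55.9 ± 3.24% in DMSO.

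Among the shared enzymes of the middle of the pathway, the steps between hexose and triose moved unevenly. GPI, the isomerase that feeds phosphofructokinase, did not pass the test, at 349, 348 and 327 CPM in olaparib against 465, 397 and 358 CPM in DMSO (log2 -0.25 ± 0.12, adjusted p = 0.0681). The groups were apart for GPI, and it passed without DMSO replicate 2 (-0.28, adjusted p = 0.0496) or 3 (-0.35, adjusted p = 0.0248) and with library size alone (-0.32, adjusted p = 0.0234). TPI1, which interconverts the triose phosphates, had the lowest log2 fold change of the 19 glycolytic genes, with 293, 309 and 314 CPM in olaparib against 1099, 884 and 754 CPM in DMSO. Each olaparib library was below each DMSO library, 2.99-fold lower (log2 -1.58 ± 0.14, adjusted p = 7.37e-07).

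The aldolase genes had low levels in both groups. ALDOA, the main aldolase of muscle and most cells, held 11, 13.9 and 13.0 CPM in olaparib against 14.8, 11.9 and 11.1 CPM in DMSO, which overlapped (log2 0.00 ± 0.16, adjusted p = 0.992). In GENCODE release 29, 42.3% of the exon bases of ALDOA are also exon bases of another protein-coding gene on the same strand, and 53.5% are shared with a gene on either strand. LDHB follows, with 33.4% shared on the same strand, while every other member shares at most 5.07% on the same strand. ALDOA and LDHB stood at 3.22 and 4.53 CPM per kb in olaparib and at 3.22 and 4.94 CPM per kb in DMSO, among the 5 lowest of the 30 in each group. The sources used here do not say how reads in shared exons were counted, and the part of the overlap in these levels was not tested. ALDOC, the brain form, was 1.38-fold higher, with 25.1, 24.8 and 24.8 CPM in olaparib against 17.8, 19.8 and 16.7 CPM in DMSO (log2 0.46 ± 0.12, adjusted p = 0.00385).

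GAPDH, the dehydrogenase often used as a reference gene, was the most abundant of the 30 per kilobase in both groups. It held 2814, 2425 and 2345 CPM in olaparib against 2156, 2248 and 1928 CPM in DMSO. All 3 olaparib libraries were above the DMSO libraries, but edgeR did not call it (log2 0.26 ± 0.13, adjusted p = 0.0946) whereas DESeq2 did (0.27, adjusted p = 0.0290). Its pseudogenes had 65 rows among the deposited counts. Together they held 901 to 1255 counts in the olaparib libraries against 120 to 200 in the DMSO libraries. This was at most 1.69% of the GAPDH counts in any library. PGK1, which makes the first ATP of glycolysis, did not pass, at 781, 763 and 731 CPM in olaparib against 1043, 878 and 807 CPM in DMSO (log2 -0.26 ± 0.13, adjusted p = 0.0752). PGK1 passed without DMSO replicate 2 (-0.30, adjusted p = 0.0477) or 3 (-0.36, adjusted p = 0.0358) and with library size alone (-0.33, adjusted p = 0.0272).

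From phosphoglycerate to pyruvate, the mutase and both enolases were lower and pyruvate kinase was higher. PGAM1, the mutase, held 211, 200 and 208 CPM in olaparib against 550, 412 and 347 CPM in DMSO (2.12-fold lower, log2 -1.08 ± 0.15, adjusted p = 3.32e-05). ENO1, the common enolase, held 1609, 1814 and 1808 CPM in olaparib against 2947, 2549 and 2046 CPM in DMSO (1.44-fold lower, log2 -0.53 ± 0.15, adjusted p = 0.00696). ENO2, the neuronal enolase, held 52.9, 42.1 and 43.9 CPM in olaparib against 71.7, 70.9 and 67.9 CPM in DMSO (1.51-fold lower, log2 -0.60 ± 0.11, adjusted p = 3.16e-04). For these 3 genes every olaparib library was below every DMSO library. ENO3, the muscle enolase and not among the 30, was 28.9-fold higher, with 338, 267 and 271 CPM in olaparib against 10.0, 10.2 and 10.1 CPM in DMSO (log2 4.85 ± 0.13, adjusted p = 8.56e-11). With ENO3 counted in, the enolase step summed to 409 ± 11.4 CPM per kb in olaparib and 495 ± 86.0 CPM per kb in DMSO, with overlapping libraries, and ENO3 made up 16.7 ± 2.79% of it in olaparib and 0.485 ± 0.087% in DMSO. PKM, which makes pyruvate and is spliced into the M1 and M2 forms that gene counts cannot separate, held 2255, 2544 and 2553 CPM in olaparib against 1865, 1374 and 1203 CPM in DMSO. Its groups were apart, 1.66-fold higher in olaparib (log2 0.73 ± 0.16, adjusted p = 0.00153).

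Lactate export held the largest difference of the 30 genes. SLC16A3 (MCT4, the lactate exporter of highly glycolytic cells) stood at 380, 329 and 326 CPM in olaparib against 56.6, 52.4 and 46.6 CPM in DMSO. The lowest olaparib library was far above the highest DMSO library, and the gene was 6.65-fold higher (log2 2.73 ± 0.12, adjusted p = 1.64e-09). SLC16A1 (MCT1, which carries lactate in either direction) was lower, at 163, 184 and 190 CPM in olaparib against 354, 261 and 281 CPM in DMSO (1.67-fold, log2 -0.74 ± 0.13, adjusted p = 2.00e-04). Per kilobase SLC16A3 was 53.2 ± 4.15% of the 2 transporters in olaparib and 9.39 ± 1.07% in DMSO. SLC16A7 and SLC16A8, 2 further monocarboxylate transporters named after their values were seen, bring this share to 46.8 ± 4.01% in olaparib and 8.86 ± 1.04% in DMSO. The summed level of SLC16A1 and SLC16A3 was 72.0 ± 0.94 CPM per kb in olaparib and 62.0 ± 9.58 CPM per kb in DMSO, which overlapped through DMSO replicate 1 (72.9). SLC16A3 lies on chromosome 17 from 82228397 to 82261129 and SLC16A1 on chromosome 1 from 112911847 to 112957013.

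Neither lactate dehydrogenase gene was called, and for LDHA the call depended on DMSO replicate 1 and on the test. LDHA, the form that favours making lactate, held 1021, 973 and 976 CPM in olaparib against 1043, 616 and 540 CPM in DMSO. DMSO replicate 1 lay above the olaparib libraries and the other 2 DMSO libraries below them (log2 0.43 ± 0.20, adjusted p = 0.0711). Without DMSO replicate 1 LDHA was called higher (0.76, adjusted p = 4.81e-05), and DESeq2 and limma-voom called it with all libraries (0.45 and 0.50, adjusted p = 0.0342 and 0.0397). Without DMSO replicate 2 or 3 it was not called (0.31 and 0.24, adjusted p = 0.257 and 0.318 with edgeR). LDHB, the form that favours using lactate, held 13.9, 13.7 and 13.0 CPM in olaparib against 14.8, 15 and 14.4 CPM in DMSO (log2 -0.12 ± 0.13, adjusted p = 0.412), under the exon overlap given above. PDK1, a kinase that turns off pyruvate dehydrogenase, overlapped between the groups, at 27.2, 30.8 and 26.3 CPM in olaparib against 34.4, 24.9 and 32.1 CPM in DMSO (log2 -0.12 ± 0.14, adjusted p = 0.445). Other kinases of this family, outside the 30 and named after their values were seen, did not all stay level. PDK3 was 2.01-fold lower (6.43 against 12.9 CPM per kb, adjusted p = 2.25e-05) and PDK4 3.63-fold lower (2.59 against 9.42 CPM per kb, adjusted p = 7.82e-04). PDK2 was not called (log2 0.06 ± 0.11, adjusted p = 0.651).

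In the oxidative arm of the pentose phosphate pathway, PGLS (the lactonase) and PGD (an NADPH-yielding dehydrogenase) were lower. PGLS held 46.5, 48.4 and 45.4 CPM in olaparib against 56.9, 95.5 and 73.2 CPM in DMSO, 1.61-fold lower (log2 -0.68 ± 0.16, adjusted p = 0.00168). PGD held 199, 208 and 205 CPM in olaparib against 294, 323 and 293 CPM in DMSO, 1.49-fold lower (log2 -0.57 ± 0.10, adjusted p = 1.79e-04). The groups were apart for both.

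The non-oxidative arm held the largest fall of the 30 genes beside a rise. RPIA, which turns ribulose phosphate into ribose phosphate for nucleotides, stood at 12.9, 12.9 and 14.2 CPM in olaparib against 55.0, 82.5 and 66.8 CPM in DMSO. The highest olaparib library was well below the lowest DMSO library, 5.10-fold lower (log2 -2.35 ± 0.15, adjusted p = 3.63e-08). RPE, the epimerase that starts the other branch from ribulose phosphate, held 45.7, 44.4 and 46.0 CPM in olaparib against 68.3, 61.9 and 57.7 CPM in DMSO, 1.38-fold lower (log2 -0.46 ± 0.10, adjusted p = 0.00115). Of the exon bases of RPE, 23.8% are shared with KANSL1L on the other strand, and the sources used here do not give the strand setting of the counts. TKT, the transketolase, was higher, at 954, 995 and 921 CPM in olaparib against 585, 654 and 572 CPM in DMSO (1.58-fold, log2 0.66 ± 0.11, adjusted p = 1.81e-04). TALDO1, the transaldolase that works with it, overlapped between the groups, at 245, 230 and 218 CPM in olaparib against 203, 239 and 186 CPM in DMSO (log2 0.14 ± 0.11, adjusted p = 0.278). TALDO1 was called higher without DMSO replicate 2 (0.23, adjusted p = 0.0462). RPIA lies on chromosome 2 from 88691644 to 88750935 and TKT on chromosome 3 from 53224707 to 53256052.

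The balance between isoenzymes was also compared within libraries, where scaling between libraries plays no part. Log2 ratios of counts were formed for 9 pairs, 2 of which share PFKL, and were tested by a 2-sided exact permutation test, which cannot go below 0.10 with 3 libraries against 3. SLC16A3 to SLC16A1 was 2.33, 1.79 and 1.71 in the olaparib libraries against 0.160, 0.201 and 0.166 in the DMSO libraries, an 11-fold higher ratio. PFKFB3 to PFKFB4 was 0.332, 0.50 and 0.529 in olaparib against 3.03, 2.08 and 2.69 in DMSO, a 5.78-fold lower ratio. In both pairs the gene with more counts in every olaparib library was the one with fewer in every DMSO library. SLC2A3 to SLC2A1 was 4.71-fold lower, and PFKP to PFKL and PFKM to PFKL were 3.01-fold and 2.35-fold higher. The ratio of PFKM to PFKL lay at 1.32 to 1.51 in olaparib against 0.559 to 0.661 in DMSO, and that of PFKP to PFKL at 1.58 to 1.78 against 0.501 to 0.670. By counts, without regard to exon length, PFKL was thus lowest of the 3 in every olaparib library and highest in every DMSO library. Per kilobase of exon PFKL was still lowest in every olaparib library. In DMSO replicates 1 to 3, however, PFKP to PFKL was then 1.24, 0.925 and 0.996, so PFKL did not lead in replicate 1. HK2 to HK1 was 1.41-fold lower, LDHB to LDHA 1.53-fold lower (at most 0.0141 in olaparib against at least 0.0142 in DMSO) and ALDOC to ALDOA 1.37-fold higher. LDHB and ALDOA are the genes with shared exons. These 8 ratios did not overlap between the groups (exact permutation p = 0.1 each, 0.113 adjusted over the 9). For single genes, the groups did not overlap for 79.4% of all tested genes. Ratios of other gene pairs were not formed, so no such share for ratios is given. ENO2 to ENO1 overlapped (exact permutation p = 0.5), at 0.0329, 0.0232 and 0.0243 in olaparib against 0.0243, 0.0278 and 0.0332 in DMSO.

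**Figure D3:**
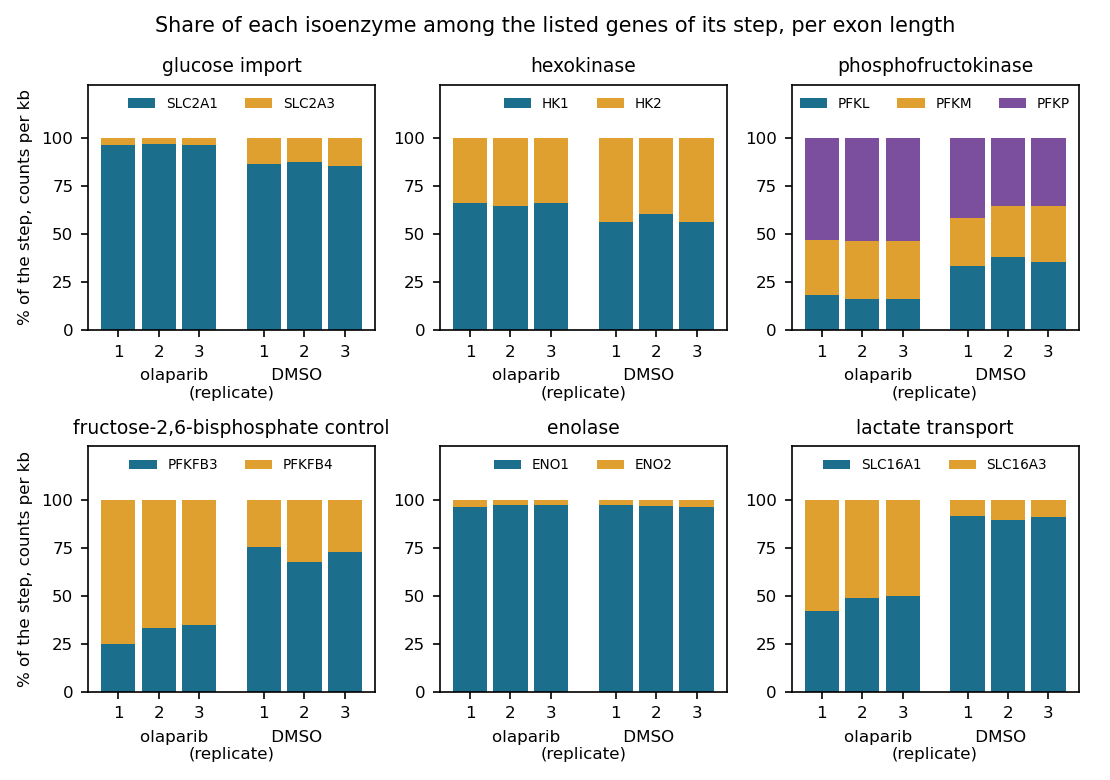
Share of each isoenzyme among those of the 30 genes that serve its step (y axis, percent of their counts per kilobase of exon), leaving out ENO3, HKDC1, SLC2A6, PFKFB2 and other family genes, in each library (x axis, replicates 1 to 3 of olaparib, then of DMSO), with bars stacked to 100%. SLC16A3 makes up 50.3 to 58.0% of SLC16A1 and SLC16A3 in olaparib and 8.64 to 10.6% in DMSO, and ENO1 96.1 to 97.2% of ENO1 and ENO2 in olaparib and 96.1 to 97.1% in DMSO; with ENO3 included, ENO1 is at 77.0 to 82.7% in olaparib and 95.5 to 96.7% in DMSO.

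Several of the genes share a chromosome region. On the short arm of chromosome 12, GAPDH (6533927 to 6538374), TPI1 (6867119 to 6870948), ENO2 (6913745 to 6923698) and SLC2A3 (7919230 to 7936275) had log2 fold changes of 0.26, -1.58, -0.60 and -1.24, so the 3 called genes were lower and GAPDH was not called. On chromosome 10, PFKP (3066333 to 3137712) was higher and PFKFB3 (6144934 to 6254644) lower. Each gene was set beside the other protein-coding genes within 5 Mb that averaged 5 CPM or more, 15 to 135 genes for each member, whose median log2 fold change ran from -0.84 to 0.72. Of the 22 called members, 13 had the sign of this median, and 11 had that of the median within 2 Mb. The same share was not computed over all tested genes. The medians themselves changed sign between the 2 window sizes for 8 of the 30. On chromosome 12, TPI1 and ENO2 had medians of -0.13 within 5 Mb and 0.24 within 2 Mb. There SLC2A3 had 0.025 and 0.22, and GAPDH -0.20 and 0.17. For RPIA (-2.35) the medians were 0.12 over 29 genes within 5 Mb and -1.24 over 4 genes within 2 Mb. TKT (0.66) and PFKFB4 (0.98) were higher while their neighbours on chromosome 3 were lower in both windows (median -0.83 and -1.12 for TKT, -0.84 and -0.82 for PFKFB4). SLC16A3 (2.73) also stood against lower neighbours, with medians of -0.56 over 84 genes within 5 Mb and -0.53 over 57 genes within 2 Mb. ENO1 (-0.53) and PGD (-0.57), both near one end of chromosome 1, had lower neighbours as well, with medians of -0.76 and -0.77 within 5 Mb. Of the phosphofructokinase genes, PFKL (-0.69) had neighbour medians of -0.56 within 5 Mb and -0.62 within 2 Mb. PFKM (0.55) had medians of 0.72 and 0.31, and PFKP (0.90) had -0.20 and 0.09. Whether any of these genes moved with its region was not tested.

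**Figure D4:**
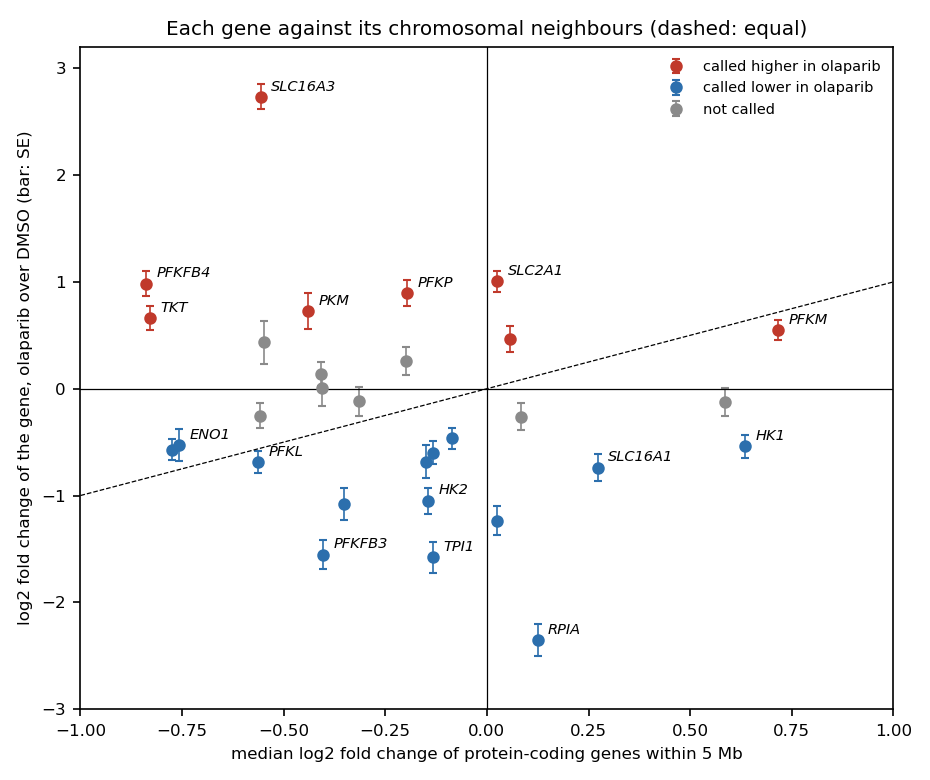
Log2 fold change of each of the 30 genes (y axis, bars for the standard error) against the median log2 fold change of protein-coding genes within 5 Mb (x axis), coloured by call, with a dashed line where both are equal. SLC16A3, PFKFB4 and TKT lie above 0 with neighbours below 0, and HK1 (-0.54, neighbours 0.63) lies on the other side.

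Genes of the pathway outside the 30 were described by lists drawn up by function. A list of 35 other genes for the same steps held mostly isoenzymes, but also related genes such as BSG, EMB, TIGAR and SLC2A13. Of the 35, 27 could be tested, and 12 were higher and 11 lower, with a median log2 fold change of 0.12, beside -0.09 for all tested genes. That is 85.2% called, against 75.7% of all tested genes, which also applies to the lists that follow. SLC2A10, a glucose transporter, was without counts in olaparib and averaged 8.62 ± 0.38 CPM in DMSO (SD, n = 3), which is at least 252-fold lower against a floor of 3 counts over the olaparib libraries. LDHC, the testis form of lactate dehydrogenase, held 0.270 ± 0.167 CPM in olaparib and 5.43 ± 1.17 CPM in DMSO (19.6-fold lower). Of 12 other pentose phosphate genes 9 were tested, with 1 higher and 2 lower (33.3% called). The lower genes were PRPS1 and PRPS2, which pass ribose phosphate on to nucleotide synthesis, at 102 ± 3.36 against 228 ± 3.37 CPM (2.23-fold lower) and 49.5 ± 2.17 against 92.2 ± 6.79 CPM (1.86-fold lower).

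Of 11 genes for pyruvate entry into mitochondria, 6 were higher and 3 lower (81.8% called, against 75.7% of all tested genes). Both subunits of the mitochondrial pyruvate carrier were lower: MPC1 held 30.5 ± 1.71 CPM in olaparib and 101 ± 13.7 CPM in DMSO (3.31-fold lower), and MPC2 20.9 ± 3.38 and 64.6 ± 5.27 CPM (3.08-fold lower). PDHB, a subunit of pyruvate dehydrogenase, was 1.69-fold lower and PC, the pyruvate carboxylase, 2.28-fold higher. The other listed subunits of the pyruvate dehydrogenase complex, named after their values were seen, were not called lower. DLAT was 1.39-fold, DLD 1.53-fold and PDHX 1.23-fold higher, and PDHA1 was not called. Of 16 tested genes of gluconeogenesis and glycogen, 4 were higher and 10 lower (87.5% called, against 75.7%), with a median log2 fold change of -0.64. PYGB, the brain form of glycogen phosphorylase, held 4.25 ± 0.50 CPM in olaparib and 161 ± 13.0 CPM in DMSO (37.9-fold lower), and PYGL, the liver form, 93.3 ± 0.89 and 264 ± 24.1 CPM (2.82-fold lower). The lysosomal glycogen-degrading enzyme GAA was 3.24-fold lower and the mitochondrial enzyme PCK2 2.44-fold lower.

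Of 13 genes that branch from glycolysis 3 were higher and 7 lower (76.9% called, against 75.7% of all tested genes). GFPT1, the entry to hexosamine synthesis, was 2.52-fold higher (291 ± 2.63 CPM in olaparib and 115 ± 11.1 CPM in DMSO). MDH2 was 3.14-fold lower, GPD1L 3.2-fold lower and the fructokinase KHK 3.6-fold lower. Of 16 regulators of glycolytic genes 7 were higher and 5 lower (75% called, against 75.7%). EPAS1, the oxygen-sensitive HIF-2 alpha, held 298 ± 26.0 CPM in olaparib and 60.6 ± 12.9 CPM in DMSO (4.91-fold higher), and HIF1A, named outside the rule after its values were seen, 174 ± 4.17 and 139 ± 6.73 CPM (1.25-fold higher). PRKAA1, a catalytic subunit of AMP-activated kinase, was 3.70-fold higher and the mitochondrial coactivator PPARGC1A 3.21-fold higher. TXNIP, which restrains glucose uptake, held 71.7, 135 and 147 CPM in olaparib against 63.4, 29.2 and 28.8 CPM in DMSO (2.91-fold higher, log2 1.54 ± 0.38, adjusted p = 0.00659).

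Replicates spread more in DMSO than in olaparib for these genes. The median coefficient of variation over the 30 genes was 5.54% in olaparib and 13.0% in DMSO, and over the 11825 tested genes averaging 5 CPM or more it was 6.75% in olaparib and 11.7% in DMSO. DMSO replicate 1 was the highest DMSO library for 17 of the 30 genes (56.7%), and for 39.2% of those 11825 genes. LDHA was the 1 member that exceeded the mean of the other 2 DMSO libraries by over 1.5-fold there (1.80-fold), and PKM and PGAM1 followed at 1.45-fold each, whereas PGLS (0.674) and RPIA (0.737) were lowest in that library.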

How the data were processed

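The deposited file is a single matrix of raw read counts, 1 row per gene symbol and 1 column per library. Per the submitters' processing notes, fastp and STAR were used with hg38. Which program, strand setting and annotation produced the counts is not given in the sources used here. Groups and replicate numbers came from the titles. Rows with 2 counts outnumbered rows with 1 in each library, so a fragment may have been counted through both reads, and counting limits, which cover counting error only, are too narrow. Replicates were not duplicates of each other (chi-square per degree of freedom 4.74 to 68.6).

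The test was edgeR 4.0.16 in R 4.3.3 (default filter, TMM scaling, robust quasi-likelihood, group as the only term), with Benjamini-Hochberg adjustment over 17078 genes. Standard errors come from the F statistic. Levels between genes are CPM per kilobase of merged GENCODE release 29 exons. These lengths pool all annotated transcripts of a gene, for example 8926 bases for PFKL and 4836 for PFKP. Which transcripts were expressed was not determined, so shares, sums and rankings per kilobase depend on this choice of length. Before log2 ratios of counts were taken, 0.5 was added to each count. DESeq2 1.42.0, limma 3.58.1 (voom), other scalings, filters and a replicate block were alternatives, and the test was tried on simulated data. All 30 members are named, with up to 4 called genes of the largest fold change and at least 5 CPM in a group from each other list, and exceptions are stated. A gene that this rule names is not reported here. Members and lists were chosen with earlier results of these data known.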

Additional observations from a re-analysis of the deposited data

How the results depend on the processing

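For 24 of the 30 genes the direction and the call were the same under every alternative run other than the 2-fold requirement. The other 6 were GPI, PGK1, GAPDH, LDHA, TALDO1 and ALDOA. The first 5 were uncalled and passed under some alternatives, with the values given beside them. ALDOA, near 0 throughout, turned sign with library size alone (-0.0646), with no filter beyond 1 count (-0.0095) and without olaparib replicate 2, DMSO replicate 2 or DMSO replicate 3 (leaving out each library in turn gave -0.0973 to 0.1214); the cause was not tested. With at least a 2-fold difference required, 2 members were higher and 6 lower, so 14 of the 22 called members lost their call, and 8028 of all tested genes were called, fewer by construction. The ratio of ENO2 to ENO1, which overlapped between the groups, turned sign without olaparib replicate 2 or DMSO replicate 3 (0.003 and 0.025, in a range of -0.248 to 0.025 on the log2 scale). Equal replicate numbers did not deviate together (correlations -0.18, -0.14 and -0.01 over 12574 genes), and unequal numbers gave -0.11 to 0.19. Such deviations, taken from the mean of 3 libraries, cannot decide whether equal numbers shared a culture or day. With the replicate block 9 members were higher and 14 lower, and LDHA passed (0.49, adjusted p = 0.0288). Shared exons and unknown strand limit the levels of ALDOA, LDHB and RPE, by an amount that was not tested.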
